A study of Rattus norvegicus with 12 samples.

Results

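The enzymes that place, copy and remove methyl groups on cytosine, together with the core of Polycomb repressive complex 2 (PRC2), were followed through 4 states of rat PAC1 cells. The genes were listed by name, with no threshold on a measured value but with earlier results of these data known: Dnmt1, Dnmt3a, Dnmt3b, Uhrf1, Tet1, Tet2, Tet3, Ezh1, Ezh2 and Suz12. All 10 were found among the 33294 rows of the count table, and all 10 passed the filter on low counts in every comparison. PAC1 is a line of rat pulmonary artery smooth muscle cells that can be kept in a more differentiated (PAC1-D) or a more proliferative (PAC1-P) culture regime. PAC1-D cells were split 1:10 once per week, and PAC1-P cells 1:20 on 2 occasions per week. The D1 group was PAC1-D with control siRNA, the P group was PAC1-P with control siRNA, RBPMS KD1 was PAC1-D with siRNA against Rbpms, and MBNL KD was PAC1-D with siRNAs against Mbnl1 and Mbnl2. The sample titles of this last group name MBNL1 alone, while its treatment label names both, and the levels of both targets are given below. Each group had 3 libraries of poly(A) RNA. Every well received 90 pmol of siRNA, again after 24 h, and was harvested 48 h after that second dose according to the sample labels. The study's methods give longer intervals for both steps, and which were used for these libraries could not be settled. All groups are therefore transfected cells of a single line, and D1 and P differ in culture regime as well as in state.

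DNA methylation is copied at each S phase by DNMT1, which UHRF1 guides to hemimethylated sites, while DNMT3A and DNMT3B place methyl groups on unmethylated DNA. The TET enzymes oxidise 5-methylcytosine, the first step of its removal. PRC2 trimethylates lysine 27 of histone H3 through either of the alternative subunits EZH1 and EZH2, neither of which is active without SUZ12 and EED. EZH2 is the form typical of dividing cells and EZH1 is the form also found in resting ones. The marks of both systems are known for holding germline and Hox genes silent in somatic cells. RBPMS and the MBNL proteins are splicing regulators, and all values below are levels of mRNA, not of protein, isoform or mark.

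Total counts per library ranged from 80842635 to 90771289, with MBNL KD replicate 3 the lowest. Levels are given as CPM (the count of a gene scaled to a fixed library total) after TMM scaling over the 12 libraries. Changes were compared within a gene, since gene length was not taken into account. Sums over genes, and the part of a gene in a sum, are in CPM without a correction for length. The siRNA targets checked the labels. Rbpms averaged 150.1 CPM in D1 and 37.54 in RBPMS KD1, Mbnl1 346.8 in D1 and 82.47 in MBNL KD, and Mbnl2 180.1 in D1 and 53.41 in MBNL KD. In P, Rbpms averaged 9.49 CPM. The 8 smooth muscle markers checked (Acta2, Myh11, Tagln, Cnn1, Mylk, Myl9, Smtn and Myocd) were detected in all 12 libraries, with a summed level of 9804 to 10310 CPM in D1, 210.8 to 224 in P, 4886 to 5060 in RBPMS KD1 and 7829 to 7945 in MBNL KD. Acta2 and Tagln made up most of that sum, with means of 5034 and 3244 CPM in D1. All 8 were lower in P and in RBPMS KD1, while in MBNL KD 6 were lower and 2 higher, Myh11 at 145% and Cnn1 at 108% of D1. Of the defining markers of other cells, Pecam1 had 2 to 14 counts and Ptprc 0 to 4 in a library, Epcam was at most 8, and Cdh5 and Kdr were at 0 in D1 and both knockdowns. In P, Cdh5 had 126, 138 and 122 counts and Kdr 0, 4 and 2. The endothelial markers Tek and Vwf were higher in P, with log2 fold changes of 3.71 and 1.3 (edgeR, adjusted p = 6.4e-19 and 6.94e-06), and in RBPMS KD1, with 1.32 and 1.22 (edgeR, adjusted p = 0.000225 and 2.38e-05). The 5 endothelial markers summed to 0.746 to 0.8158 CPM in D1 and 5.429 to 6.758 in P (1.824 to 1.84 in RBPMS KD1 and 0.9373 to 1.415 in MBNL KD), and the 5 leukocyte ones to at most 1.644 in any library. Of the leukocyte markers, Cd3e was higher in P, with 16, 22 and 16 counts against 8, 4 and 2 in D1. Its log2 fold change was 1.8 (edgeR, adjusted p = 0.00234). Csf1r was at 247% of D1 in MBNL KD, with 52, 62 and 56 counts. The 4 epithelial markers summed to 35.53 to 37.28 CPM in D1, 80.3 to 83.33 in P, 38.84 to 41.43 in RBPMS KD1 and 53.66 to 54.58 in MBNL KD, and without Krt8, a keratin looked at after its values were seen, to at most 0.3954 in any library. The 4 fibroblast markers summed to 14390 to 15100 CPM in D1, 17930 to 19990 in P, 20030 to 21310 in RBPMS KD1 and 13020 to 13390 in MBNL KD, nearly all of it Col1a1, which averaged 14520 CPM in D1. The members did not move as one: 3 were higher and 1 lower in P (Pdgfra, at 82% of D1), 3 and 1 in RBPMS KD1 (Lum, at 76.8%), and 1 and 3 in MBNL KD, where Pdgfra was at 116% and Dcn at 42.3%. The part of these markers' cells in the results was not tested. In RNA from whole cultures, fewer cells of a type and less RNA per cell cannot be told apart.

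The agents that define the groups were siRNAs with these sense strands, shown in lower case because no part of them is singled out. C2 is the control given to D1 and P, MBNL KD received both MBNL siRNAs, and a single siRNA is listed for each target.
C2: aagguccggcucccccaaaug
RBPMS: ggcggcaaagccgagaaggcgaaca
MBNL1 THH2: cacggaauguaaauuugcauu
MBNL2: gaagaguaauugccugcuuuu

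Promoter windows from RefSeq, running from 250 bases before to 50 bases after a start site on the GRCr8 assembly, were matched for 8 of the 10 genes in 15 windows. Dnmt3b and Ezh1 were not matched. They were searched on both strands for E2F letters, taken as TTGGCGC and 3 relatives of it, namely TTCCCGC, the similar string TTGCCGC, and lastly the string TTCGCGC. E2F factors are known to drive genes of S phase. At least 1 of these strings stood in 5 of the 15 windows, those of the 4 genes Dnmt1, Uhrf1, Ezh2 and Suz12. Beside this stood 9.52% of all 33469 windows and 22.8% of the 8091 windows with at least 20 CG dinucleotides. No window of Dnmt3a, Tet1, Tet2 or Tet3 held these strings. Several of the 15 windows held fewer than 20 CG dinucleotides, that of Dnmt1 with 17 among them. Nor are all 15 separate: the first and second windows of Tet3 nearly coincide, and those of Uhrf1 overlap. The 4 windows below are printed because these 4 genes share the match and differ in their response. They read 5′ to 3′ on the strand of the gene, and capitals mark the E2F strings and the CCAAT box (CCAAT or its complement ATTGG), which 37.5% of all windows hold.
Dnmt1, chr8:27762792-27763091, minus strand: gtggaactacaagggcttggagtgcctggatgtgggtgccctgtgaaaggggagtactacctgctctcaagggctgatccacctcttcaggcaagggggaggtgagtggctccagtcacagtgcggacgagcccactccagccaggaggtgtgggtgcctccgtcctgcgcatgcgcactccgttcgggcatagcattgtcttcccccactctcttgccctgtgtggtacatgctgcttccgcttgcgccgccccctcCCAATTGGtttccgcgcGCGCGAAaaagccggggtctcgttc
Uhrf1, chr9:1222936-1223235, plus strand: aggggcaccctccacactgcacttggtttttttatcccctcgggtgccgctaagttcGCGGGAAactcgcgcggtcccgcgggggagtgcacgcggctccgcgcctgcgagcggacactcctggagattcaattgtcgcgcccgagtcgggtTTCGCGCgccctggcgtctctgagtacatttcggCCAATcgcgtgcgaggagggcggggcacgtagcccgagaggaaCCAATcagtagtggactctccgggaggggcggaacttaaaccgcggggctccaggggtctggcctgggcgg
Ezh2, chr4:77687134-77687433, minus strand: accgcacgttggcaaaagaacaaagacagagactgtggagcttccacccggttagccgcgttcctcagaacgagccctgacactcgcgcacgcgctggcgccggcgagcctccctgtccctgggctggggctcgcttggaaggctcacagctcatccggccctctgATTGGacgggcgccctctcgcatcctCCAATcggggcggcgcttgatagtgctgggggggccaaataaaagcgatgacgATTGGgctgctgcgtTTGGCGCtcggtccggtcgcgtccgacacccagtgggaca
Suz12, chr10:65464719-65465018, plus strand: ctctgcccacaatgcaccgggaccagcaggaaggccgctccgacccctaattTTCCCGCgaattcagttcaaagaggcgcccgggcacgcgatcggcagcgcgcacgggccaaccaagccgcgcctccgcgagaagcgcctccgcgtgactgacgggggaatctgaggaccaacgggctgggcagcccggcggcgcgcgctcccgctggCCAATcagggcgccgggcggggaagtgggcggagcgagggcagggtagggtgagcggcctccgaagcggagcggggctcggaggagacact
The windows held 17 CG dinucleotides for Dnmt1, 35 for Uhrf1, 30 for Ezh2 and 38 for Suz12, where the median of all windows was 7 and the upper quartile 19. Uhrf1 had 3 windows, of which the one shown held 2 E2F strings and another held 1. The GC box GGGCGG stood in 10 of the 15 windows, with at least 1 for each of the 8 matched genes, and in 33.1% of all windows, and in 80.2% of those with at least 20 CG dinucleotides. The CHR element TTTGAA, known from mitotic genes, was found in 1 of the 15 windows, that of Suz12, on the complementary strand, in 18.3% of all windows and in 7% of those with at least 20 CG dinucleotides.

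In proliferative cells the de novo enzymes moved in opposite directions, Dnmt3b up and Dnmt3a down, while Tet1 and Tet3 fell and Dnmt1 rose. With RBPMS depleted, Suz12, Dnmt3a and Uhrf1 fell most and Ezh1 rose. With MBNL1 and MBNL2 depleted, Ezh1, Uhrf1, Ezh2, Suz12 and Tet3 fell most and none of the 10 was called higher. In the plot of levels by library, spread within a group was small: the coefficient of variation was between 1.05% and 22.5% over the 40 sets of 3 libraries, with a median of 3.02%, and 39 of them lay under 7%. The exception was Dnmt3b in D1.

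**Figure D1:**
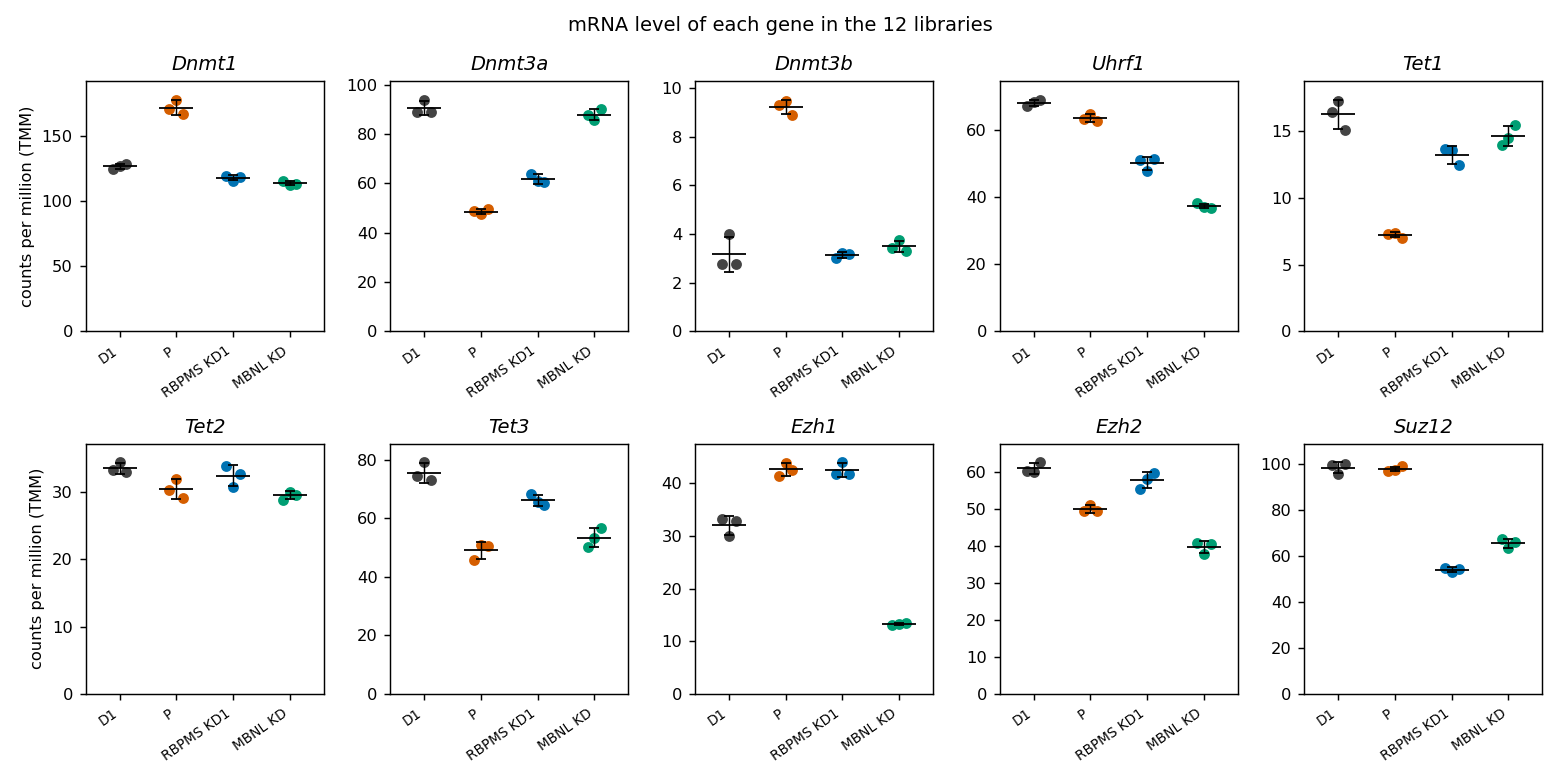
Level of each of the 10 genes in CPM (TMM-scaled, vertical axis from 0) in D1, P, RBPMS KD1 and MBNL KD. Points are the 3 libraries of a group, long bars the mean and whiskers 1 SD; the MBNL KD libraries of Ezh1 lie at 13.04 to 13.44, below all other libraries of that gene, and the P libraries of Dnmt3b lie at 8.892 to 9.469, above all others.

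The pair that copies methylation came apart. Dnmt1, the maintenance methyltransferase, stood at 124.7, 126.5 and 128.3 CPM in the 3 D1 libraries and at 170.6, 177.9 and 166.6 CPM in P. Its level in P was 136% of D1, all P libraries lay above all D1 libraries, and the log2 fold change was 0.44 (SE 0.027, edgeR quasi-likelihood test, adjusted p = 5.99e-16). In RBPMS KD1 it was 119.3, 115.5 and 118.8 CPM, and in MBNL KD 115.1, 112.6 and 113.4. Both knockdowns thus lay below D1 without overlap, but by little: the log2 fold changes were -0.10 (SE 0.027, edgeR, adjusted p = 0.00185) and -0.15 (SE 0.023, edgeR, adjusted p = 1.15e-06). The smaller of these was not past the threshold under quantile normalization, where it was -0.032 (limma, adjusted p = 0.29), or on the authors' normalised values, where it was -0.034 (limma, adjusted p = 0.231). From low to high the order for Dnmt1 was MBNL KD, RBPMS KD1, D1 and P, with a fold of 1.51 between the ends.

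Uhrf1, whose protein recruits DNMT1 to newly copied DNA, went down with both knockdowns and hardly moved in P. It measured 67.13, 68.47 and 68.86 CPM in D1, 51.14, 47.79 and 51.29 in RBPMS KD1, and 38.08, 37.11 and 36.76 in MBNL KD. No library of either knockdown reached the D1 range, and no MBNL KD library reached that of RBPMS KD1. Log2 fold changes against D1 were -0.44 in RBPMS KD1 (SE 0.033, edgeR, adjusted p = 3.05e-12) and -0.87 in MBNL KD (SE 0.031, edgeR, adjusted p = 2.02e-20). In P, where Dnmt1 was highest, Uhrf1 was 63.26, 64.82 and 62.65 CPM, a log2 fold change of -0.11 (SE 0.03, edgeR, adjusted p = 0.00204). Uhrf1 was lower in MBNL KD than in RBPMS KD1 and lower in RBPMS KD1 than in P, and D1 was the highest of the 4, with a fold of 1.83 between the ends.

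Dnmt3a and Dnmt3b, the de novo methyltransferases, differed in P and RBPMS KD1, and neither was called in MBNL KD. Dnmt3a read 89.01, 94.03 and 88.99 CPM in D1 and 48.68, 47.44 and 49.51 in P. It was thus at 53.5% of D1 in P, a log2 fold change of -0.91 (SE 0.031, edgeR, adjusted p = 3.14e-23). In RBPMS KD1 the 3 libraries had 64.01, 60.83 and 60.63 CPM, which is 68.2% of D1 and a log2 fold change of -0.55 (SE 0.032, edgeR, adjusted p = 9.62e-15). In MBNL KD they had 87.76, 85.6 and 90.21 CPM and overlapped D1. The difference there was -0.044 on the log2 scale with a 95% interval from -0.10 to 0.011 (edgeR, adjusted p = 0.166), which leaves out a fall of the size seen in RBPMS KD1. The order was P, RBPMS KD1, then MBNL KD and D1, which did not differ beyond their spread.

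Dnmt3b had the fewest counts of the 10 in D1, 240, 343 and 239 counts, or 2.758, 3.982 and 2.743 CPM. D1 replicate 2 stood above the others. In P the gene had 877, 887 and 832 counts, or 9.318, 9.469 and 8.892 CPM, and every P library lay above every other library of the series. The level in P was 292% of D1, with a log2 fold change of 1.54 (SE 0.098, edgeR, adjusted p = 8.12e-16), past the threshold of a log2 fold change of 1 as well. RBPMS KD1 had 2.998, 3.225 and 3.182 CPM and MBNL KD 3.441, 3.732 and 3.293, both overlapping D1. The intervals of their log2 differences from D1 ran from -0.25 to 0.23 (edgeR, adjusted p = 0.954) and from -0.095 to 0.39 (edgeR, adjusted p = 0.304). Without D1 replicate 2 the value for MBNL KD became 0.34 (edgeR, adjusted p = 0.014). That for RBPMS KD1 was -0.0096 with all libraries and turned to 0.19 without D1 replicate 2 (edgeR, adjusted p = 0.183), so no direction can be given for it. Dnmt3l, the inactive cofactor of the de novo enzymes in germ cells, had 0 counts in all 12 libraries. If each count is a separate fragment, counting error alone allows up to 3 counts, or between 0.032 and 0.037 CPM, in a library. With both mates of a fragment counted, that limit would be higher.

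Among the TET dioxygenases, Tet1 and Tet3 fell and Tet2 varied least. Tet1 had 16.49, 17.29 and 15.13 CPM in D1 and 7.321, 7.366 and 7.021 in P. At 44.4% of D1 this was a log2 fold change of -1.18 (SE 0.062, edgeR, adjusted p = 6.35e-18), past both thresholds. Tet1 libraries of RBPMS KD1 had 13.67, 13.59 and 12.48 CPM, all below D1, with a log2 fold change of -0.30 (SE 0.058, edgeR, adjusted p = 6.38e-05). MBNL KD, at 13.98, 14.47 and 15.48 CPM, overlapped D1. Its log2 fold change of -0.15 (SE 0.057, edgeR, adjusted p = 0.0189) was not past the threshold without D1 replicate 2, when it was -0.12 (edgeR, adjusted p = 0.101), nor without MBNL KD replicate 1, when it was also -0.12 (edgeR, adjusted p = 0.0912).

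Tet3 fell in all 3 comparisons with D1. From 74.27, 79.11 and 72.9 CPM in D1 it went to 45.71, 50.99 and 50.54 in P, to 50.28, 53.28 and 56.66 in MBNL KD and to 68.15, 65.44 and 64.65 in RBPMS KD1. None of these libraries reached the D1 range. The log2 fold changes were -0.63 in P (SE 0.037, edgeR, adjusted p = 1.52e-16), -0.50 in MBNL KD (SE 0.036, edgeR, adjusted p = 4.16e-13) and -0.19 in RBPMS KD1 (SE 0.033, edgeR, adjusted p = 1.68e-05). Tet2 ranged only from 28.89 to 34.45 CPM over the 12 libraries. Its log2 fold changes were -0.14 in P (edgeR, adjusted p = 0.00175) and -0.18 in MBNL KD (edgeR, adjusted p = 0.000114), and in RBPMS KD1 the difference was -0.047 with an interval from -0.13 to 0.034 (edgeR, adjusted p = 0.342). The fold between its highest and lowest group was 1.14, against 2.25 for Tet1 and 1.54 for Tet3.

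The alternative catalytic subunits of PRC2 did not move together. Ezh1 was 33.16, 29.92 and 32.86 CPM in D1 and 13.04, 13.29 and 13.44 CPM in MBNL KD. With 41.5% of the D1 level left, the log2 fold change was -1.27 (SE 0.049, edgeR, adjusted p = 7.71e-20), the one value past both thresholds among the 10 genes in that comparison. In RBPMS KD1 Ezh1 went the other way, to 41.67, 43.98 and 41.76 CPM, a log2 fold change of 0.41 (SE 0.041, edgeR, adjusted p = 9.83e-10). P had 41.38, 43.91 and 42.57 CPM and a log2 fold change of 0.41 (SE 0.04, edgeR, adjusted p = 5.05e-11). RBPMS KD1 and P, each at 133% of D1, overlapped, and their direct difference of -0.024 had an interval from -0.098 to 0.049 (edgeR, adjusted p = 0.556). Between the knockdowns Ezh1 differed by 1.68 on the log2 scale (SE 0.044, edgeR, adjusted p = 3.32e-24), and its fold between highest and lowest group, 3.21, was the largest of the 10.

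Ezh2 had 60.25, 60.04 and 62.63 CPM in D1 and 40.74, 37.77 and 40.62 in MBNL KD, a log2 fold change of -0.62 (SE 0.034, edgeR, adjusted p = 7.17e-16). P lay between them at 49.34, 51.14 and 49.56 CPM, with a log2 fold change of -0.29 (SE 0.032, edgeR, adjusted p = 8.06e-10). RBPMS KD1 libraries, at 55.36, 58.21 and 59.74 CPM, were all below D1 but near it. That difference of -0.076 missed the threshold (edgeR, adjusted p = 0.0529), and it passed without RBPMS KD1 replicate 3 at -0.10 (edgeR, adjusted p = 0.0196) and without D1 replicate 2 at -0.089 (edgeR, adjusted p = 0.0488).

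Suz12, the subunit on which the whole complex is assembled, was lowered by both knockdowns and not in P. Its libraries had 99.58, 95.91 and 100.2 CPM in D1 and 97.3, 97.51 and 99.18 in P, which overlapped. The interval of that log2 difference, -0.067 to 0.040 (edgeR, adjusted p = 0.662), leaves room for a change of a few percent at most. RBPMS KD1 libraries had 54.88, 53.08 and 54.41 CPM, that is 54.9% of D1 and a log2 fold change of -0.86 (SE 0.03, edgeR, adjusted p = 1.09e-19). In size this exceeded the changes of 92.7% of all genes tested in the comparison. MBNL KD, at 67.28, 63.51 and 66.01 CPM, also lay below D1 in every library, with a log2 fold change of -0.59 (SE 0.028, edgeR, adjusted p = 2.06e-17). RBPMS KD1 was the lower of the knockdowns, with a log2 difference of -0.27 (SE 0.032, edgeR, adjusted p = 7.59e-09).

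The counts of changed genes have to be read against comparisons in which most genes were called. Against D1, P had 3 of the 10 higher and 6 lower at an adjusted p under 0.05, where 77.9% of all genes tested were called, 40.4% higher and 37.6% lower. In RBPMS KD1, 1 was higher and 6 lower, beside 59.1% of all genes called and 29.5% in either direction. MBNL KD had 0 higher and 8 lower, beside 67.5% called, 33.8% higher and 33.7% lower. The 0 higher in MBNL KD, and the 0 past both thresholds in RBPMS KD1, came from edgeR and were also 0 at its unadjusted p under 0.05 and with DESeq2. Groups did not overlap for 9 genes in P, where 79.1% of all genes did not, for 8 in RBPMS KD1 (63.4%) and for 7 in MBNL KD (70.3%). Past a log2 fold change of 1 as well were 2 genes in P, Dnmt3b and Tet1, where 27.6% of all genes were, 0 in RBPMS KD1 (4.68%) and Ezh1 in MBNL KD (10.2%). The median log2 fold change of the 10 was -0.13 in P, -0.15 in RBPMS KD1 and -0.34 in MBNL KD, where the medians of all genes tested were 0.020, 0.0043 and 0.0099. The 3 comparisons share the D1 libraries. The plot of log2 fold changes shows the values side by side.

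**Figure D2:**
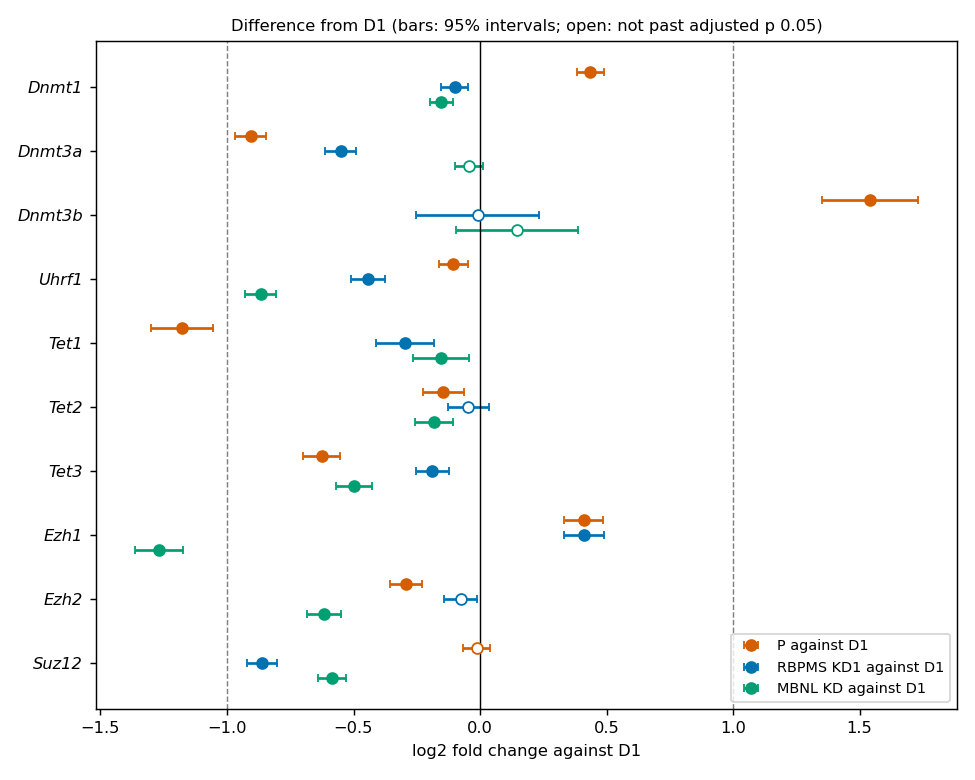
Log2 fold change against D1 (horizontal axis) of each of the 10 genes in P, RBPMS KD1 and MBNL KD, from edgeR. Bars are 95% intervals, open points are not past an adjusted p of 0.05, and dashed lines mark a log2 fold change of 1 in either direction; Ezh1 stands at 0.41 in P and RBPMS KD1 and at -1.27 in MBNL KD.

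The knockdowns were also set against each other, with no D1 library in the fit. RBPMS KD1 was higher than MBNL KD for 6 of the 10 genes and lower for 3, where 69.5% of all genes were called, 34.5% higher and 35.1% lower. Ezh1, Ezh2, Uhrf1 and Tet3 were higher in RBPMS KD1, by 1.68, 0.55, 0.43 and 0.31 on the log2 scale, with edgeR adjusted p from 3.32e-24 to 9.08e-09. Dnmt3a and Suz12 were lower in RBPMS KD1, with log2 differences of -0.50 (edgeR, adjusted p = 4.7e-15) and -0.27 (edgeR, adjusted p = 7.59e-09). The difference in Ezh1 was larger in size than those of 96.6% of all genes tested. Tet2 (0.14), Tet1 (-0.14) and Dnmt1 (0.057) differed by small amounts, and Dnmt3b was not past the threshold, with an interval from -0.35 to 0.051 (edgeR, adjusted p = 0.197). Against P, RBPMS KD1 differed in 9 of the 10, 4 of them higher and 5 lower in P, where 79.4% of all genes were called, 40.5% higher and 39% lower. MBNL KD differed from P in 9, 6 higher and 3 lower in P, where 81.5% were called, 41.4% higher and 40.1% lower.

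Ratios of related genes, alternative enzymes or partners in one step, were taken within each library, where no scaling enters. They are ratios of counts, so a change in a ratio can be read and its absolute size cannot. With 3 libraries against 3, the smallest two-sided p of the exact permutation test is 0.1. Ezh2 to Ezh1 was 1.82, 2.01 and 1.91 in D1, 1.19, 1.16 and 1.16 in P, 1.33, 1.32 and 1.43 in RBPMS KD1 and 2.84 to 3.13 in MBNL KD. It thus moved toward Ezh1 in P and RBPMS KD1 and toward Ezh2 in MBNL KD, each without overlap with D1 (exact permutation test, p = 0.1 for each). Dnmt3b to Dnmt3a averaged 0.0343 in D1 and 0.19 in P, and it also lay above D1 in RBPMS KD1, at 0.0507 (exact permutation test, p = 0.1 for both). In MBNL KD, at 0.0397, it overlapped D1 (exact permutation test, p = 0.3).

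Uhrf1 to Dnmt1 was the tightest of these ratios in D1, between 0.537 and 0.541. It was lower in all 3 other groups without overlap, at 0.37 in P, 0.425 in RBPMS KD1 and 0.328 in MBNL KD (exact permutation test, p = 0.1 for each). In P this went with a higher Dnmt1, and in the knockdowns with a Uhrf1 that had fallen by more than Dnmt1. Tet1 to Tet3 fell from 0.216 in D1 to 0.148 in P and stood higher, at 0.274, in MBNL KD (exact permutation test, p = 0.1 for both), while RBPMS KD1 at 0.2 overlapped D1 (exact permutation test, p = 0.2). Tet2 to Tet3 was 0.445 in D1, 0.621 in P, 0.491 in RBPMS KD1 and 0.553 in MBNL KD, above D1 in all 3 (exact permutation test, p = 0.1 for each). In all, 45 ratios were compared with D1, those to replication genes included, and no p could pass a threshold of 0.05, adjusted or not.

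**Figure D3:**
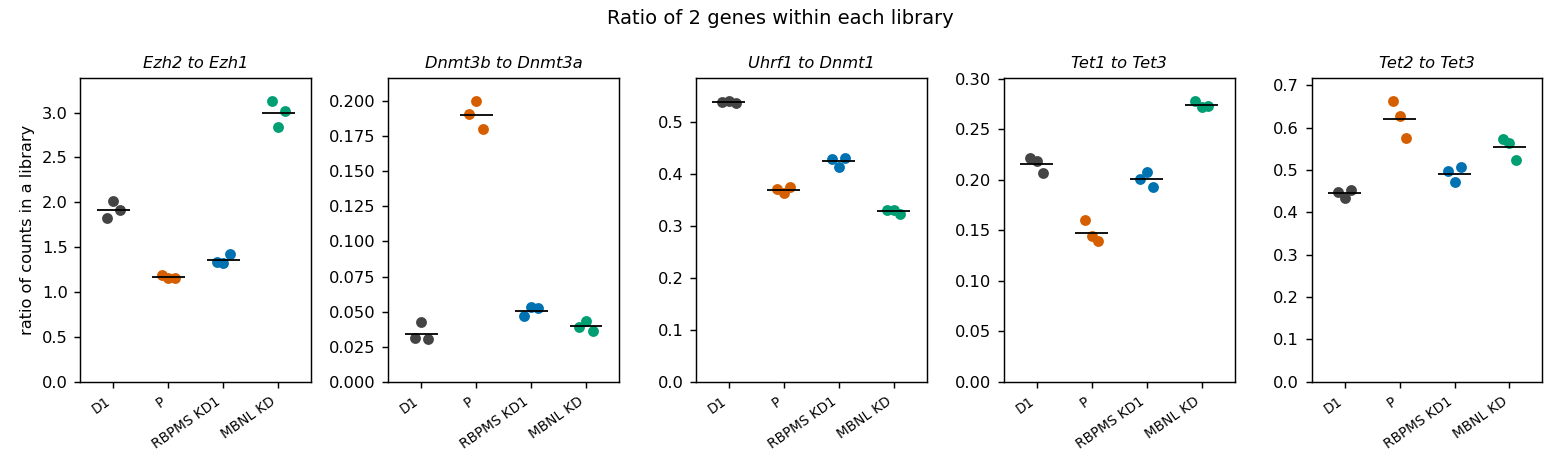
Ratio of the counts of 2 genes within each library (vertical axis from 0, no scaling) for Ezh2 to Ezh1, Dnmt3b to Dnmt3a, Uhrf1 to Dnmt1, Tet1 to Tet3 and Tet2 to Tet3 in the 4 groups. Points are libraries and bars are geometric means; Ezh2 to Ezh1 stands at 1.91 in D1, 1.17 in P, 1.36 in RBPMS KD1 and 2.99 in MBNL KD.

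Genes of the cell cycle moved with the groups, and several of the 10 are known to be expressed with S phase. The 10 replication genes (Pcna, which is also among the partners below, the 6 Mcm genes from Mcm2 to Mcm7, Rrm2, Ccne2 and Gins2) summed to 744.8 to 757.9 CPM in D1, 881.8 to 896.7 in P, 607.9 to 623.5 in RBPMS KD1 and 500.9 to 508.3 in MBNL KD. Of these, 6 were higher and 2 lower in P, 0 higher and 9 lower in RBPMS KD1, and 1 higher and 9 lower in MBNL KD. Of all genes tested, 40.4% were called higher and 37.6% lower in P. The shares were 29.5% in either direction in RBPMS KD1, and 33.8% and 33.7% in MBNL KD. The 10 mitosis genes, among them Mki67 and Top2a, were all lower in both knockdowns, while in P 5 were higher, 1 was lower and 4 were not called. Their summed level was 890.4 to 916 CPM in D1, 1063 to 1095 in P, 721.1 to 751.5 in RBPMS KD1 and 535.4 to 537.7 in MBNL KD. These are mRNA levels. In the study's own assay of EdU uptake, proliferation of PAC1-D cells rose with RBPMS knockdown and did not change with MBNL1 and MBNL2 depletion. The reason for that unlike direction in RBPMS knockdown was not tested. The part of the cell cycle in the values of the 10 enzymes was not tested.

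Each gene was then set against the geometric mean of the replication genes in the same library. Without overlap with D1, 3 of the 10 were above it and 7 below in P, 5 above and 3 below in RBPMS KD1, and 5 above and 2 below in MBNL KD (exact permutation test, p = 0.1 for each, the smallest possible). The list itself moved, so all genes shifted with it: of all genes tested, 30.3% were above and 50.3% below in P, 66.2% and 7.94% in RBPMS KD1, and 79.1% and 5.94% in MBNL KD. A place above D1 in a knockdown was thus the usual one on this scale. Several genes whose level fell were not below D1 on this scale. Tet3 was above it in RBPMS KD1 (0.14) and overlapped it in MBNL KD (0.15, exact permutation test, p = 0.2), and was below it in P (-0.82). Tet1 was below D1 in P (-1.37), overlapped it in RBPMS KD1 (0.035, exact permutation test, p = 0.7) and was above it in MBNL KD (0.50). Tet2 was below in P (-0.34) and above in RBPMS KD1 (0.28) and MBNL KD (0.46). Dnmt3b was above in P (1.37) and MBNL KD (0.81) and overlapped in RBPMS KD1 (0.34, exact permutation test, p = 0.3). Uhrf1 was below D1 in all 3 groups, with log2 differences of -0.30 in P, -0.11 in RBPMS KD1 and -0.22 in MBNL KD, each without overlap (exact permutation test, p = 0.1). Dnmt1 was above D1 in all 3, by 0.24, 0.23 and 0.50. Ezh2 in MBNL KD, where its level fell, differed from D1 by 0.030 on this scale and overlapped it (exact permutation test, p = 0.6), and Suz12 there by 0.062, also overlapping (exact permutation test, p = 0.3). In RBPMS KD1, Suz12 was below D1 on this scale (-0.53) and Ezh2 above it (0.26), and in P both were below (-0.21 and -0.49). Ezh1 was below D1 in MBNL KD (-0.62) and above it in P (0.21) and RBPMS KD1 (0.74). Dnmt3a was below in P (-1.10) and RBPMS KD1 (-0.22) and above in MBNL KD (0.60).

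The partners of these enzymes were taken from 4 lists with 89 genes between them, of which 87 were in the table. In P, 39 were higher and 32 lower of 78 tested, beside 40.4% and 37.6% of all genes tested. In RBPMS KD1, 21 were higher and 34 lower of 77, beside 29.5% of all genes in either direction. With 1 library left out, these counts were 17 to 19 and 32 to 34. In MBNL KD, 18 were higher and 46 lower of 77, beside 33.8% and 33.7%. The same shares stand beside the counts of each list. The partner genes had median log2 fold changes of 0.094, -0.067 and -0.13, beside the all-gene medians of 0.020, 0.0043 and 0.0099. The list for DNA methylation (readers, chromatin remodellers and repair enzymes) had 13 higher and 11 lower of 25 in P, 6 and 14 of 24 in RBPMS KD1, and 6 and 15 of 24 in MBNL KD. H3K9 methylation, a separate silencing mark, had 8 higher and 3 lower of 12 in P, 2 and 5 in RBPMS KD1, and 2 and 8 in MBNL KD.

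The partners of PRC2 had 5 higher and 6 lower of 12 tested in P, beside 40.4% and 37.6% of all genes. Either knockdown had 2 higher and 6 lower. Beside these stood 29.5% of all genes in either direction in RBPMS KD1, and 33.8% and 33.7% in MBNL KD. Jarid2, whose protein helps PRC2 onto its targets, had the largest change among these partners in RBPMS KD1. It was 32.67, 32.36 and 30.54 CPM in D1 and 12.5, 12.49 and 11.93 in RBPMS KD1, a log2 fold change of -1.37 (SE 0.047, edgeR, adjusted p = 7.89e-20). No other gene of the 4 lists was past both thresholds in RBPMS KD1. In MBNL KD Jarid2 averaged 22.29 CPM, a log2 fold change of -0.51 (edgeR, adjusted p = 6.55e-12), and in P it was the highest, at 45.61 CPM and 0.51 (edgeR, adjusted p = 2.12e-14). The remaining core subunits, named here for their role and with their values already seen, had smaller log2 differences from D1 than Suz12 in both knockdowns. Eed, which binds the finished mark, was 37.93 CPM in RBPMS KD1 and 36.98 in D1 (edgeR, adjusted p = 0.431), and 33 CPM in MBNL KD, a log2 fold change of -0.16 (edgeR, adjusted p = 0.000844). The histone-binding subunit Rbbp4 had log2 fold changes of -0.32 in RBPMS KD1 (edgeR, adjusted p = 9.65e-09) and 0.53 in P (edgeR, adjusted p = 2.98e-16), and its relative Rbbp7 differed from D1 by between -0.23 and 0.13 in the 3 comparisons.

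PRC1 ubiquitinates histone H2A, and PR-DUB is a deubiquitinase complex. Their list had 13 genes higher and 12 lower of 29 in P, beside 40.4% and 37.6% of all genes. In RBPMS KD1 it had 11 and 9, beside 29.5% in either direction. In MBNL KD it had 8 and 17, beside 33.8% and 33.7%. In P the genes past both thresholds were Scml2 (from 1.517 to 12.42 CPM, log2 fold change 3.03) and Bcor (42.11 to 135.4 CPM, 1.68), which were higher, and Mga (28.7 to 9.771 CPM, -1.56) and Bmi1 (88.8 to 43.26 CPM, -1.04), which were lower. BCOR is a subunit of a variant PRC1, BMI1 of the canonical form, and MGA of the variant PRC1 known for silencing germline genes. In MBNL KD they were Phc2 (99.75 to 38.22 CPM, -1.38), Scmh1 (40.18 to 18.7 CPM, -1.10) and Cbx7 (0.9955 to 0.465 CPM, -1.09), all lower. Cbx7 had few counts, 85, 97 and 77 in D1 and 41, 43 and 37 in MBNL KD. For these 7 genes edgeR gave an adjusted p of 8.93e-05 or less, and the groups did not overlap for any of them.

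Outside PRC1, Morc2, which the silencing complex HUSH uses on H3K9-methylated chromatin, fell in MBNL KD from 107.4 to 38.68 CPM, a log2 fold change of -1.47 (SE 0.031, edgeR, adjusted p = 2.93e-26). Gadd45a, a stress gene linked to demethylation, fell in P from 21.94 to 10.66 CPM, a log2 fold change of -1.05 (edgeR, adjusted p = 4.2e-16). In MBNL KD, where it averaged 42.33 CPM, it was higher by 0.95 (edgeR, adjusted p = 3.37e-16). Cxxc4, a reader of unmethylated CpG, had 0 counts in all D1 and knockdown libraries and 139, 125 and 159 in P. If each count is a separate fragment, this is at least 43.8-fold higher against a limit of 3 counts per library. With both mates of a fragment counted, the fold would have a lower bound. The medians for P above are the same with this gene set at that bound. The spread of the partner genes is shown in the plot by list.

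**Figure D4:**
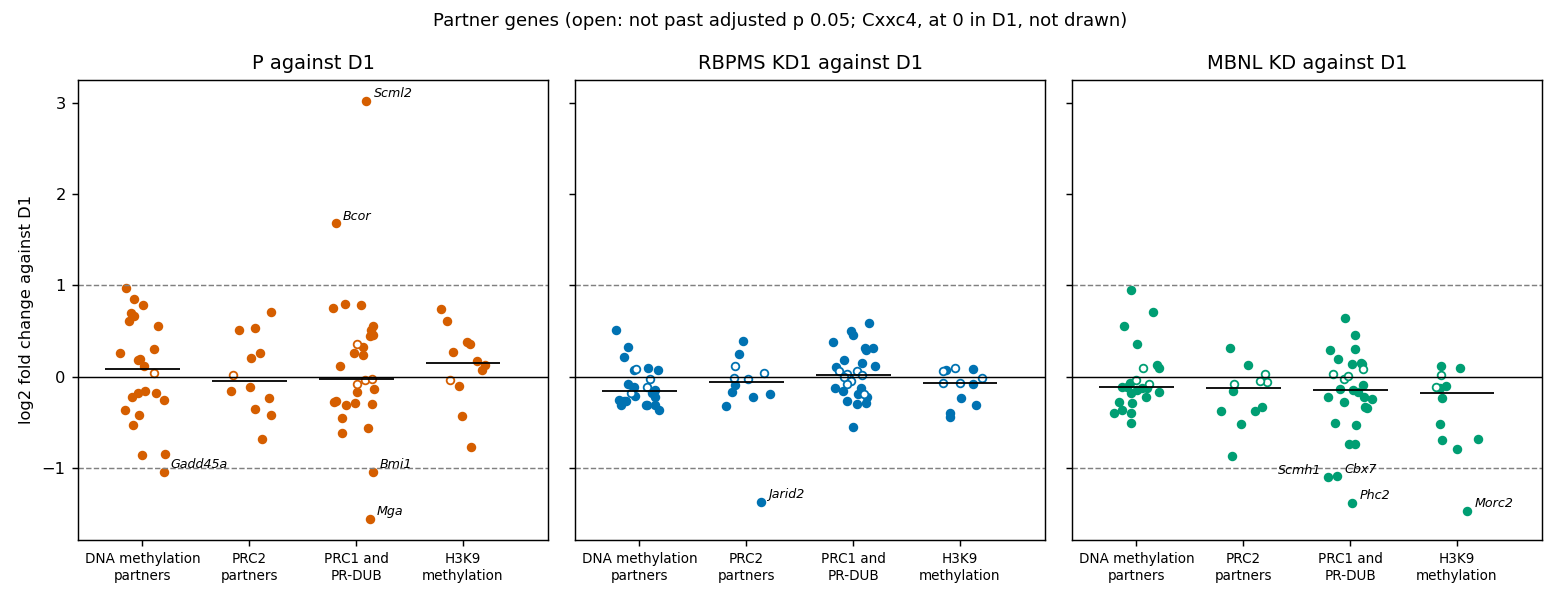
Log2 fold change against D1 (vertical axis) of the genes of 4 partner lists in P, RBPMS KD1 and MBNL KD, from edgeR; named genes are past an adjusted p of 0.05 and a log2 fold change of 1 (dashed lines), open points are not past an adjusted p of 0.05, and horizontal bars are medians without Cxxc4. RBPMS KD1 has 1 named gene, Jarid2 at -1.37, and the 4 named in MBNL KD are all lower.

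The genes whose pattern was most like that of each enzyme were found by the distance between the 3 log2 fold changes against D1, over 12519 genes. This is a likeness over 3 values that share the D1 libraries, and it is given as a description. Suz12 was closest to Pogz (distance 0.030), Ulk1 and Brca1, and only 10 genes lay within 0.25 of it. Ezh1 had 8 genes within that distance, the nearest being Bckdk (0.11), Zdhhc1 and Cdc42se1. Uhrf1 was closest to Tuba1b (0.057), Atrx and Lmnb1, with 49 within 0.25, and Tet1 to Nr2f1 (0.069), Zfp618 and Cep76, with 47. Tet2 and Dnmt1, which moved little in the knockdowns, had 854 and 442 genes as near. Of the 10 themselves, the nearest pairs were Tet3 with Ezh2 at 0.373 and Dnmt3a with Tet1 at 0.386.

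Germline and Hox genes, the classes these enzymes are known to silence, were read in the same libraries. The germline list was drawn up in part from genes already known to be higher in P, so its direction there is not independent evidence. Its 22 genes summed to 18.46 to 19.5 CPM in D1 and 1524 to 1538 in P, with 13 of them above 100 counts in every P library. In RBPMS KD1 the sum was 23.21 to 26.05 CPM and in MBNL KD 19.13 to 20.11. Most of the sum outside P was Tex101, pointed out after its values were seen, with a mean of 17.71 CPM in D1, 703.2 in P, 23.12 in RBPMS KD1 and 17.63 in MBNL KD. The other 21 genes summed to 1.033 to 1.549 CPM in D1, 826.1 to 834.5 in P, 1.413 to 1.817 in RBPMS KD1 and 1.64 to 2.365 in MBNL KD. Of the Hox genes, 6 were higher and 12 lower of 20 tested in P, beside 40.4% and 37.6% of all genes. In RBPMS KD1 they were 2 and 6 of 19, beside 29.5% in either direction. In MBNL KD they were 2 and 9 of 19, beside 33.8% and 33.7%. The Hox genes named here were pointed out after their values were seen. Hoxa11 had 12, 12 and 8 counts in D1 and 338, 347 and 372 in P, while Hoxc6 had 129, 116 and 94 counts in D1 and 0 in each P library. Hoxd8 had the largest fall in P, from 467, 561 and 444 counts in D1 to 0 in each P library.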

How the data were processed

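The 12 poly(A) libraries fall by their labels into 4 groups of 3, called here D1, P, RBPMS KD1 and MBNL KD. The last is titled MBNL1 KD in the labels, and was named by its treatment label, which gives both genes. The deposited counts are whole reads per gene symbol, not normalised: per the study's methods the authors drew equal subsamples of reads (seqtk), mapped these to the mRatBN7.2 build with STAR and assigned them to RefSeq genes with featureCounts. The submitters' processing notes name STAR 2.7.11b, edgeR 3.40.2 and DESeq2 1.38.3. The second deposited table holds normalised signal values that the authors made with noisyR and quantile normalization, none of them below 35, over 19812 genes. It was used for alternatives. The strand setting and the counting of mates are not given in the sources used here. In every library even counts outnumbered neighbouring odd ones, by a ratio of 2.06 to 2.36, so halved counts were tried too. Reads shared with near-identical copies of a gene could not be told apart.

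Only the 6 libraries compared entered a fit, made in R 4.3.3 with edgeR 4.0.16: filterByExpr, TMM and the quasi-likelihood F test, with Benjamini-Hochberg adjustment over all genes tested. A gene was called at an adjusted p under 0.05, and past both thresholds if its log2 fold change was also beyond 1 (2-fold). The SE follows from F (the absolute log2 fold change over its root), and the 95% intervals are the normal ones from that SE. Ratios within libraries were compared by the two-sided exact permutation test. Alternatives used DESeq2 1.42.0 and limma 3.58.1. Summaries were made in Python 3.11.15. The steps were tested on simulated data. The labels do not describe separate cultures, although the study's methods state independent biological replicates for all experiments, so the p-values measure the spread between these libraries. Replicate pairs differed by more than sampling noise, with a chi-square per degree of freedom of 3.82 to 14, the highest for pairs with MBNL KD replicate 3. Same-numbered libraries of different groups did not deviate together, with correlations between -0.0486 and 0.0845 over genes. A count of 3 was taken as the limit of detection, for counting error only. It would be higher if both mates of a fragment were counted.

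The members, the lists and the tests were chosen with earlier results of these data known. The text names the 10 enzymes, the siRNA targets, from each partner list up to 5 genes in each direction past both thresholds with at least 100 counts over the 6 libraries, and the 3 genes nearest to an enzyme among genes with a mean of at least 100 counts. Other genes are pointed out where they appear. Promoter windows came from RefSeq on GRCr8, which is not the assembly of the counts, and no coordinate was carried between them.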

Additional observations from a re-analysis of the deposited data

Results flagged for a closer look

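A direct fit of RBPMS KD1 against MBNL KD, both in PAC1-D cells, found 9 of the 10 enzymes different between the knockdowns. The log2 differences, RBPMS KD1 over MBNL KD, were 1.6848 for Ezh1, 0.5458 for Ezh2, 0.4289 for Uhrf1, 0.3125 for Tet3, 0.1414 for Tet2 and 0.0567 for Dnmt1. They were -0.5021 for Dnmt3a, -0.2724 for Suz12 and -0.1391 for Tet1. In the same fit 69.5% of all genes were called. The values for Dnmt1 (edgeR, adjusted p = 0.048) and Tet1 (edgeR, adjusted p = 0.0378) lay close to the threshold. These calls and that of Tet2 were lost under some other settings, given below. With 1 library left out, 5 to 6 enzymes were higher and 2 to 3 lower.

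The log2 ratio of Ezh2 to Ezh1 moved in opposite directions in the knockdowns, by -0.4888 from D1 in RBPMS KD1 and by 0.6498 from D1 in MBNL KD, with every library on its own side of the D1 range. That difference of the ratios was not tested. Of the 10 replication genes, 9 were lower in each knockdown and 1 was higher in MBNL KD. Beside these, 29.5% of all genes were lower in RBPMS KD1 and 33.7% in MBNL KD. The part of the replication genes in the ratio was not tested.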

How the results depend on the processing

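Over the 60 differences of an enzyme between groups, 960 values were computed under other settings, and 911 kept their direction and their side of the threshold. A further 29 lost the call and 5 gained one, in 8 of the 60. Another 15, in 5 of the 60, changed sign without being called in either fit. These were Suz12 in P (0.0303 with limma-voom and quantile normalization, 0.0304 from the authors' normalised values and 0.0072 with at least 10 counts in every library), Dnmt3a in MBNL KD (0.0337 and 0.0327 with the first 2 of these), Ezh1 between P and RBPMS KD1 (1e-04, 4e-04 and 0.002 with these settings, 0.005 in one fit of 12 libraries, and -0.0432 to 0.0038 with 1 library left out), Dnmt3b in RBPMS KD1 (0.0031 with the replicate number as a block, and -0.1029 to 0.1886 with 1 library left out) and Tet2 between P and MBNL KD (-0.0293 to 0.0376 with 1 library left out). Of the partner genes named, Cbx7 in P was -0.1145 with limma-voom and quantile normalization and -0.0832 from the authors' normalised values, and Bmi1 in MBNL KD was -2e-04 with no filter and -0.0104 to 0.0247 with 1 library left out, none of these called. Other settings changed calls. Bmi1 in MBNL KD was higher with limma-voom and quantile normalization (0.0862, limma, adjusted p = 0.00907) and from the authors' normalised values (0.0818, limma, adjusted p = 0.0265). Without D1 replicate 2, edgeR called Cbx7 in P (0.4462, adjusted p = 0.0494) and Gadd45a in RBPMS KD1 (-0.2078, adjusted p = 0.00392). Scml2 in RBPMS KD1 lost its call in several settings, among them DESeq2 (0.383, adjusted p = 0.0561). Besides those given above, the enzyme calls that were lost were Tet2 in P against RBPMS KD1 and, between the knockdowns, Dnmt1, Tet1 and Tet2. Tet2 between the knockdowns was 0.0955 with limma-voom and quantile normalization (limma, adjusted p = 0.0503). It was 0.0928 from the authors' normalised values (limma, adjusted p = 0.0891). Between the knockdowns Tet1 was -0.0825 without RBPMS KD1 replicate 3 (edgeR, adjusted p = 0.266), -0.0907 without MBNL KD replicate 3 (edgeR, adjusted p = 0.219), -0.1415 without RBPMS KD1 replicate 2 (edgeR, adjusted p = 0.0668) and -0.1343 without MBNL KD replicate 2 (edgeR, adjusted p = 0.0798). Dnmt1 there lost its call without RBPMS KD1 replicate 1 (edgeR, adjusted p = 0.0656), MBNL KD replicate 2 (0.074) or MBNL KD replicate 3 (0.0756), and Tet2 in P against RBPMS KD1 without P replicate 3 (edgeR, adjusted p = 0.1) or RBPMS KD1 replicate 1 (0.0885). Leaving out 1 library at a time gave 0 to 1 genes higher in MBNL KD, the 1 being Dnmt3b without D1 replicate 2. From the authors' normalised values, P minus D1 was 2.1027 for the log2 ratio of Dnmt3b to Dnmt3a (2.4688 from counts), -0.5646 for Uhrf1 to Dnmt1 (-0.5402) and -0.6643 for Tet1 to Tet3 (-0.5489), and the cause was not tested.

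Replicate numbers do not pair the libraries. With the replicate number as a block, 7 of the enzymes were lower in RBPMS KD1 in place of 6, Ezh2 being added (-0.0767, edgeR, adjusted p = 0.0376), and the other member counts were as without the block, namely 3 higher and 6 lower in P, 1 higher in RBPMS KD1 and 0 higher and 8 lower in MBNL KD. Partner genes with the block were 39 higher and 32 lower in P, 21 and 35 in RBPMS KD1, and 18 and 46 in MBNL KD.

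Over all genes, those past both thresholds numbered 4641 in P, 745 in RBPMS KD1, 1643 in MBNL KD and 1920 between the knockdowns. On the authors' normalised values, tested with limma, they were 209 in RBPMS KD1, 784 in MBNL KD and 1050 between the knockdowns. With at least 10 counts required in every library they were 2933 in P, and 3154 in place of 4914 between P and RBPMS KD1, where fewer genes are tested. Of the genes past both thresholds, the percent that were higher was 59.4 in P, 65.4 in RBPMS KD1 and 59.6 in MBNL KD against D1, and 55.4 between P and RBPMS KD1. With limma-voom and quantile normalization these percents were 45.4, 53.8, 50 and 44.9, and with limma on the authors' normalised values they were 50.4, 50.2, 49.5 and 48.9. At these depths counting error was small for 9 of the enzymes, and Dnmt3b in D1, with 239 to 343 counts, was the least precise.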
